A study of Mus musculus with 20 samples.

Results

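The genes described here are 10 regulators of entry into the cell cycle, taken by symbol from the 54532 genes of the count table of a mouse spleen study: the D cyclins Ccnd1, Ccnd2 and Ccnd3, the E cyclins Ccne1 and Ccne2, the E2F factors E2f1, E2f2, E2f4 and E2f8, and Rb1. The study set spleens of control mice against spleens of mice that had been bred on gluten-free food, all of age 4 weeks. RNA of whole spleen was sequenced in 11 control and 9 gluten-free libraries, whose titles carry an ID that is a plain number (8 control, 4 gluten-free) or begins with an S (3 control, 5 gluten-free). The labels used here name no strain, sex or litter and do not say what the S stands for, nor that each ID is a separate mouse, so p-values measure the spread between these libraries. The control group carries no other label than its diet, and the composition of either diet is not given in the sources used here.

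D cyclins activate the kinases Cdk4 and Cdk6 in early G1, the phase before DNA synthesis, and E cyclins activate Cdk2 at the start of S phase. Both phosphorylate the retinoblastoma protein, encoded by Rb1, which otherwise holds E2F factors inactive at the promoters of S-phase genes. E2f1 and E2f2 encode activators, E2f4 a factor that mostly represses together with pocket proteins, and E2f8 an atypical factor that represses E2F targets late in S phase. In the spleen of a young mouse, dividing red cell precursors and lymphocytes use this machinery.

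RefSeq promoter windows on GRCm38.p6, from 250 bases before to 50 bases after a start site, matched 5 of the 10 genes (E2f1, E2f2, Ccne1, E2f8 and Ccnd3) with 7 windows. They were searched on both strands for the E2F words TTTCCCGC, TTTCGCGC, TTTGCCGC and TTTGGCGC and for TTTGAA, the word of the cell cycle gene homology region. The upstream bases of 3 of the genes that were lower with the gluten-free diet in the plain-ID libraries are shown, an activator, an E cyclin and the atypical E2F, so that their promoters can be set side by side. Capitals mark a searched word (TTCAAA in E2f8 is TTTGAA on the other strand), and the longer sequences end before the transcribed part.
E2f2, chr4:136172024-136172273, plus strand: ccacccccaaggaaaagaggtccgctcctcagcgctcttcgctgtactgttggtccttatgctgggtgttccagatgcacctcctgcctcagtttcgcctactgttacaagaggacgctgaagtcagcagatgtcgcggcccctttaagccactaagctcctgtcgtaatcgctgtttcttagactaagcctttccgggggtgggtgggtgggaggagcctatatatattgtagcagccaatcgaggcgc
E2f2, word just after the start site, chr4:136172296-136172323, plus strand: aatttggcggcatatagTTTGGCGCtaa
Ccne1, chr7:38107535-38107740, minus strand: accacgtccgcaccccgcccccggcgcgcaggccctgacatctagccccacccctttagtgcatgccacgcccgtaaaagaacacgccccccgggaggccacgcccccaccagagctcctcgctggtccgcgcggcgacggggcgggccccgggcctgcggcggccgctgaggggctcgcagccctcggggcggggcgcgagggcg
E2f8, chr7:48881597-48881846, minus strand: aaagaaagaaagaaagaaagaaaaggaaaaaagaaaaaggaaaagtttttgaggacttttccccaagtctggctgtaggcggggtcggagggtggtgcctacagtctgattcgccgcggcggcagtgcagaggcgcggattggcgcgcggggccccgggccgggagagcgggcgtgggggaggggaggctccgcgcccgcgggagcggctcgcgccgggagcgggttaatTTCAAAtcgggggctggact

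The only E2f1 window (chr2:154569377-154569676) lay inside E2f1 in the annotation of the count table, so the bases before that gene's start were not searched. Of the windows of the 5 matched genes, only the first E2f2 window held an exact E2F word. This was TTTGGCGC at bases 40 to 47 after its RefSeq start site. The word lies before the start of E2f2 in the annotation of the count table, so it stands upstream of the gene by one annotation and inside it by the other. Over all 32851 mouse windows of the same length, 744 (2.26%) held one of the 4 words. Among 20 known E2F target genes, 17 matched and 9 of their 19 windows (47.4%) held a word. The E2f8 window and the second E2f2 window held TTTGAA, as did 17.9% of all windows. That E2f2 window (chr4:136180532-136180831) lay inside E2f2 in the annotation of the count table. These matches are letters in a window, and no binding was measured.

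Library totals ran from 13626021 to 24268237 counts, and all 10 genes passed the filter on low counts. The least counted of them, Ccnd1, had 153 to 692 counts per library. Levels are given as CPM, a gene's count relative to the library total, scaled by TMM, which corrects library totals for differences in composition. The mean over 20 libraries, divided by gene model length, was highest for E2f2 at 135 CPM per kb, followed by E2f4 at 102, Ccnd3 at 64.5, Ccne1 at 55.6 and Rb1 at 43.2. E2f1 (26.5 CPM per kb), E2f8 (22.6) and Ccne2 (20.3) came next. The D cyclins Ccnd2, at 10.5 CPM per kb, and Ccnd1, at 3.59, were the least abundant per length. Within the plain-ID controls the neighbours E2f2 (153 ± 34.1 CPM per kb, SD, n = 8) and E2f4 (122 ± 21.3) had ranges of 1 SD that overlapped.

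**Figure D1:**
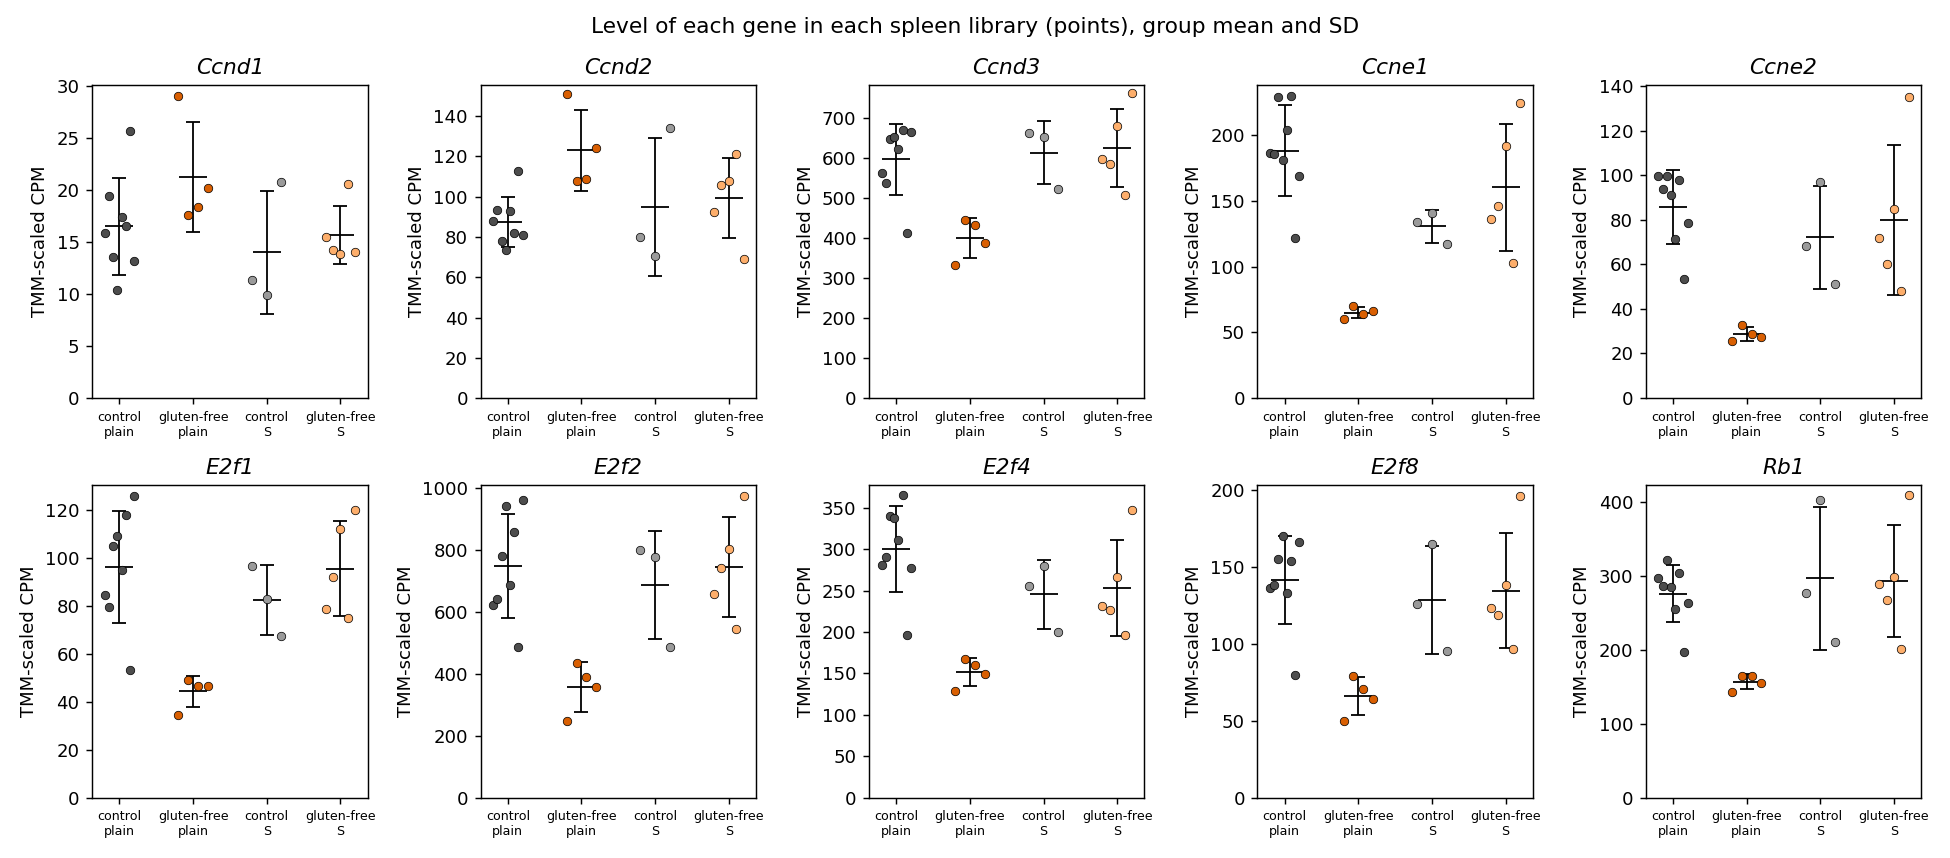
TMM-scaled CPM of each of the 10 genes (vertical axis, linear, from 0) in each of the 20 spleen libraries (points), grouped by diet and ID form, with the group mean (long line) and SD (bars). The 4 gluten-free libraries with plain IDs lie below every other library of both diets for Ccne1, Ccne2, E2f1, E2f2, E2f4, E2f8 and Rb1.

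In the libraries with plain IDs, both E cyclins, all 4 E2F factors, Rb1 and Ccnd3 were lower with the gluten-free diet, and Ccnd2 was higher. The differences of the E cyclins were the largest of the 10, 2.90-fold for Ccne1 and 2.98-fold for Ccne2. In the edgeR fit of these 12 libraries 8 of the 10 genes were called lower and 1 higher, at an adjusted p under 0.05 over 17600 genes. Over all tested genes 22% were called lower and 19.7% higher, so a call was common in this comparison. The median log2 fold change of the 10 genes was -1.03, and that of all tested genes was 0.05. Fewer cells of a type and less RNA per cell cannot be told apart in RNA of a whole organ.

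Ccne1 (ENSMUSG00000002068, GRCm38 chr7:38097984-38107534, minus strand) encodes cyclin E1, a partner of Cdk2. Its level in the 8 plain-ID controls ran from 122 to 230 CPM with a median of 187, and the 4 plain-ID gluten-free libraries 7, 8, 9 and 10 had 60.1, 69.8, 63.7 and 66.5 CPM. The groups did not overlap, and the gluten-free libraries lay close together (65.0 ± 4.14 CPM, SD, n = 4, against 189 ± 34.9, n = 8). The log2 fold change was -1.53 ± 0.14 (SE, adjusted p = 1.08e-05). Ccne2 (ENSMUSG00000028212, chr4:11191351-11204779, plus strand) encodes cyclin E2, which also activates Cdk2. It ran from 53.3 to 99.7 CPM with a median of 92.4 in these controls and was 25.8, 32.9, 28.6 and 27.4 CPM in the gluten-free libraries, again without overlap. Its log2 fold change was -1.58 ± 0.15 (SE, adjusted p = 1.17e-05).

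Of the activators, E2f2 (ENSMUSG00000018983, chr4:136172394-136196057, plus strand) ran from 488 to 962 CPM in the plain-ID controls, with a median of 734, and was 248, 436, 390 and 356 CPM in the gluten-free libraries 7, 8, 9 and 10. The highest gluten-free library lay under the lowest control, and the log2 fold change was -1.07 ± 0.18 (SE, adjusted p = 0.000283). E2f1 (ENSMUSG00000027490, chr2:154559407-154569892, minus strand) ran from 53.4 to 126 CPM with a median of 99.8 in controls and was 34.6, 49.2, 46.8 and 46.7 CPM with the gluten-free diet. The gap between its groups was small, since control 8 at 53.4 CPM came near gluten-free 8, and the log2 fold change was -1.12 ± 0.18 (SE, adjusted p = 0.000189).

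E2f4 (ENSMUSG00000014859, chr8:105297663-105305370, plus strand), the repressor, ran from 197 to 366 CPM with a median of 301 in the plain-ID controls, and was 129, 168, 160 and 149 CPM in the gluten-free libraries. The groups lay apart, and E2f4 fell by 0.99 on the log2 scale (SE 0.14, adjusted p = 6e-05). E2f8 (ENSMUSG00000046179, chr7:48866429-48881596, minus strand), the atypical repressor, had a median of 146 CPM and a highest value of 170 in these controls. Its lowest control, 79.6 CPM in control 8, lay just above the highest of the gluten-free values, which were 49.9, 78.9, 70.8 and 64.2 CPM. The log2 fold change of E2f8 was -1.10 ± 0.17 (SE, adjusted p = 0.000116). E2f1, E2f2, E2f4 and E2f8 thus fell by similar amounts, between 0.99 and 1.12 on the log2 scale. This did not hold for the whole E2F family. E2f7 had -1.11, but E2f6 had -0.52, E2f3 -0.43 and E2f5 0.37, the last not called.

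Rb1 (ENSMUSG00000022105, chr14:73183673-73325822, minus strand), the pocket protein that binds E2F factors, ran from 197 to 321 CPM with a median of 286 in the plain-ID controls. In the gluten-free libraries 7, 8, 9 and 10 it was 143, 165, 165 and 155 CPM. It fell by 0.82 on the log2 scale (SE 0.11, adjusted p = 5.69e-05), without overlap of the groups. In all, 7 of the 10 genes were lower without overlap in the plain-ID libraries, as were 13.5% of all tested genes.

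The D cyclins did not move as a group. Ccnd3 (ENSMUSG00000034165, chr17:47505051-47599691, plus strand) was the most abundant D cyclin per length, with 413 to 669 CPM and a median of 634 in plain-ID controls, and 333, 444, 433 and 388 CPM in gluten-free libraries. Control 8 lay under the highest gluten-free library, and the log2 fold change was -0.58 ± 0.13 (SE, adjusted p = 0.00206). Ccnd2 (ENSMUSG00000000184, chr6:127125162-127152193, minus strand) ran the other way: 73.3 to 113 CPM with a median of 84.8 in controls, and 151, 108, 109 and 124 CPM in gluten-free libraries. Control 8, at 113 CPM, was again the library that overlapped, and the log2 fold change was 0.49 ± 0.11 (SE, adjusted p = 0.0027). Ccnd1 (ENSMUSG00000070348, chr7:144929931-144939925, minus strand) ran from 10.4 to 25.7 CPM with a median of 16.3 in controls and was 29.1, 17.6, 18.4 and 20.2 CPM with the gluten-free diet. Its log2 fold change of 0.36 ± 0.19 (SE) did not pass the threshold (adjusted p = 0.137). Without control 8 it did, at 0.48 (adjusted p = 0.0204), in a fit that called 49.5% of all tested genes.

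The ratio of Ccnd2 to Ccnd3 within a library, in CPM per kb, was 0.143 ± 0.0491 (SD, n = 8) in plain-ID controls and 0.296 ± 0.0903 (n = 4) in plain-ID gluten-free libraries. It was 0.151 ± 0.0771 (n = 3) and 0.154 ± 0.0497 (n = 5) in S-ID control and gluten-free libraries. Control 8 (0.254) and control S6 (0.240) lay inside the range of the plain-ID gluten-free libraries, 0.227 to 0.423. Ratios within the other families were close in the plain-ID groups: Ccne1 to Ccne2 was 2.92 ± 0.404 (n = 8) in controls and 2.99 ± 0.173 (n = 4) with the gluten-free diet. E2f2 to E2f1 was 5.07 ± 0.455 and 5.16 ± 0.484. E2f4 to E2f2 was 0.814 ± 0.116 and 0.865 ± 0.117, and E2f8 to E2f4 was 0.212 ± 0.0275 and 0.195 ± 0.0154. These 4 differences were smaller than the spread within the control group.

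**Figure D2:**
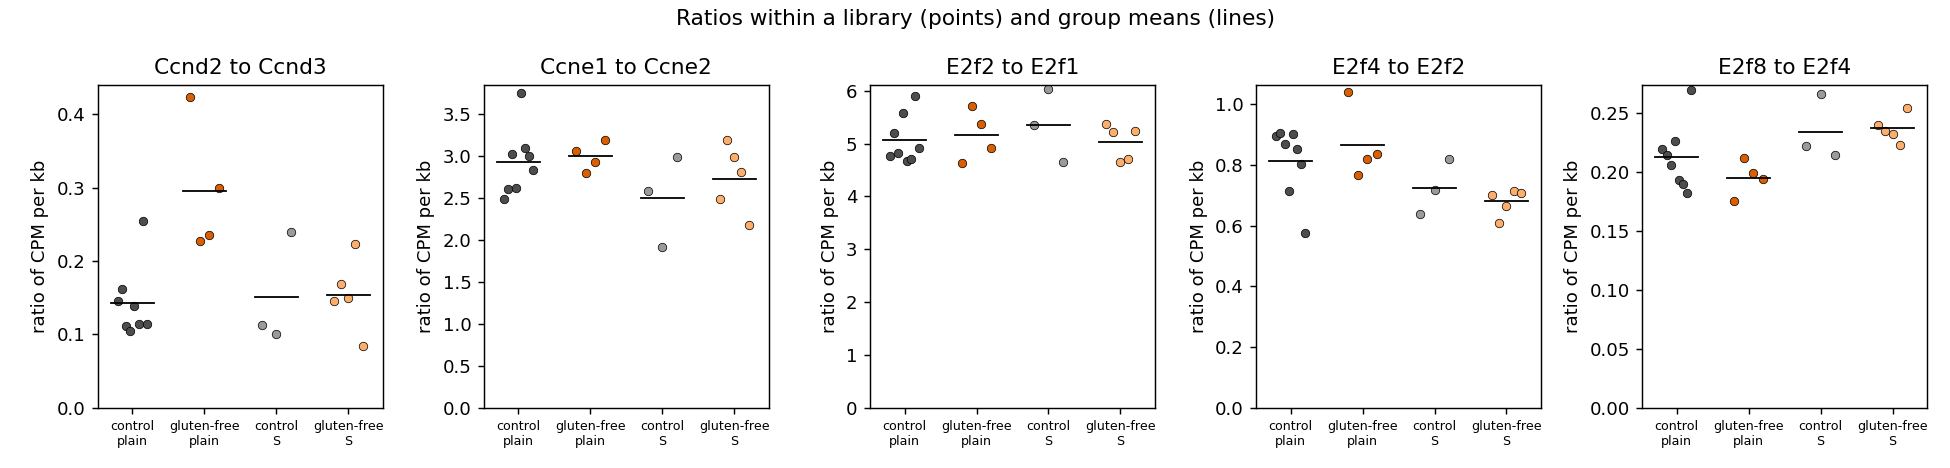
Ratio of 2 genes of a family within each library (points, CPM per kb over CPM per kb, linear axes from 0) with group means (lines). Ccnd2 to Ccnd3 averages 0.296 in the plain-ID gluten-free libraries and 0.143 to 0.154 in the other groups, while the ranges of the other 4 ratios overlap between the plain-ID diets.

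In the libraries with S IDs none of the 10 genes differed by diet beyond the threshold, and 0% of all tested genes did. At an unadjusted p under 0.05 edgeR gave 917 of 17600 genes, among them 0 of the 10. At an adjusted p under 0.05, where edgeR called 0 genes, DESeq2 called 4 and limma-voom 0, none of them among the 10. Ccne1 was 134, 141 and 117 CPM in control S1, S2 and S6 and 136, 146, 192, 103 and 225 CPM in gluten-free S1, S3, S5, S6 and S8. The gluten-free values enclosed the control values, and the log2 fold change of 0.30 had a 95% interval of -0.20 to 0.80. Ccne2 was 68.2, 96.7 and 51.3 CPM in these controls and 71.9, 60.2, 84.7, 48.2 and 135 CPM in the gluten-free libraries, with an interval of -0.54 to 0.84. For both E cyclins gluten-free S6 was the lowest and gluten-free S8 the highest of the S-ID libraries. E2f2 was 799, 777 and 486 CPM in controls and 656, 743, 802, 546 and 974 CPM with the gluten-free diet (interval -0.38 to 0.61). Rb1 was 277, 402 and 211 CPM and 289, 268, 298, 201 and 410 CPM (interval -0.56 to 0.53).

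Among the S-ID libraries E2f1 ran from 67.5 to 96.5 CPM in controls and from 75.1 to 120 with the gluten-free diet, E2f4 from 200 to 280 and from 196 to 347, and E2f8 from 95 to 165 and from 96.8 to 196. Ccnd3 ran from 521 to 662 and from 506 to 760 CPM. The groups overlapped for each of them. Ccnd2 was 80.0, 70.6 and 134 CPM in control S1, S2 and S6 and 92.4, 106, 108, 121 and 69.0 CPM in the gluten-free libraries, so that a control library was highest and gluten-free S8 lowest. Ccnd1 was 11.4, 9.88 and 20.8 CPM and 15.5, 14.3, 13.9, 20.6 and 14.1 CPM. On simulated data of this comparison 43% of genes changed 2-fold and 3% of those changed 1.5-fold were recovered, against 73% and 49% in the plain-ID comparison. The simulation changed 100 genes by each fold, all upward, out of 17600. It drew each gene on its own, so differences in composition shared by many genes were not simulated for either comparison. The real plain-ID fit called 41.7% of all tested genes, so the simulated rates do not carry over to it.

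**Figure D3:**
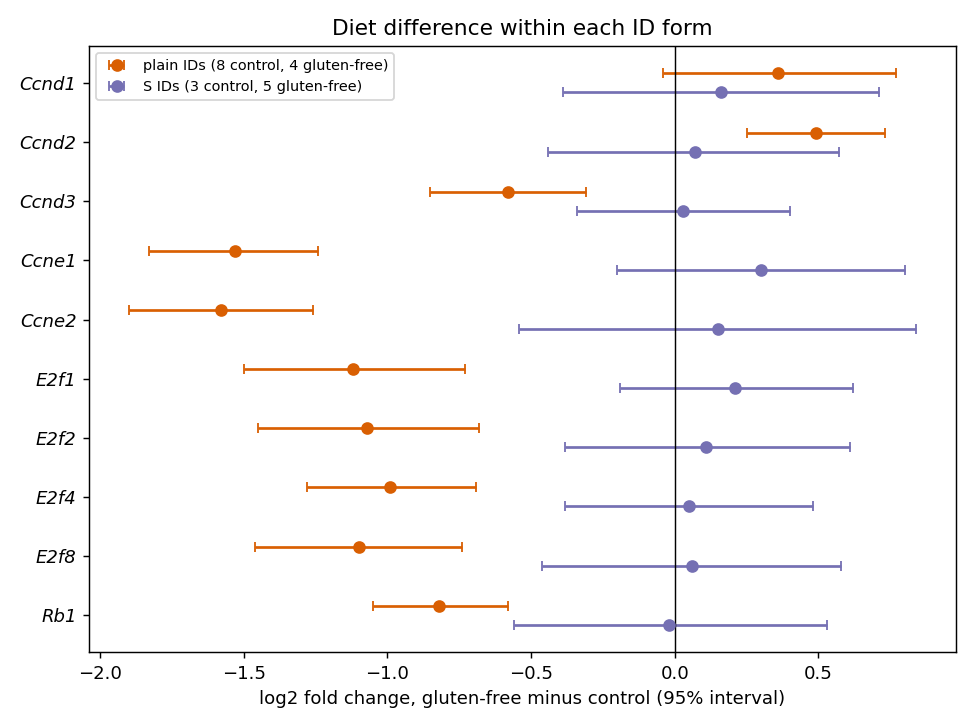
Log2 fold change (gluten-free minus control) of each gene with its 95% interval, fitted within the plain-ID libraries (orange) and within the S-ID libraries (purple). In the plain-ID fit the intervals of 8 genes lie below 0 and that of Ccnd2 above it, and in the S-ID fit all 10 intervals include 0.

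The difference between these diet effects was tested as the interaction of diet and ID form. It was called for 8 of the 10 genes, each with a higher value in the S-ID libraries, beside 15.3% of all tested genes called in that direction. For Ccne1 the diet effect was higher by 1.83 ± 0.27 on the log2 scale (SE, adjusted p = 0.00175) in the S-ID libraries, and for Ccne2 by 1.73 ± 0.34 (adjusted p = 0.00276). The E2F genes E2f1, E2f2, E2f8 and E2f4 had values of 1.33, 1.18, 1.17 and 1.03 (adjusted p = 0.00376 to 0.00901). Rb1 (0.80, adjusted p = 0.0271) and Ccnd3 (0.61, adjusted p = 0.0344) had the smallest called values. Calls of these 2 genes depended on single libraries: Ccnd3 was lost without gluten-free 7, gluten-free 10, control S6, gluten-free S5 or gluten-free S8, and Rb1 without gluten-free 7, control S1, control S6 or gluten-free S8, with adjusted p between 0.0513 and 0.107. Ccnd2 (-0.43, interval -0.94 to 0.09) and Ccnd1 (-0.21, interval -0.89 to 0.48) were not called.

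Setting the ID forms side by side within a diet showed which group stood apart. Among gluten-free libraries 8 of the 10 genes were called higher with S IDs than with plain IDs, and all 8 also did not overlap. Over all tested genes 20% were called higher in that comparison and 18.7% were higher without overlap. The log2 differences were 1.48 ± 0.25 (SE, adjusted p = 0.00217) for Ccne2 and 1.30 ± 0.19 (adjusted p = 0.00185) for Ccne1. They lay between 0.65 and 1.11 for Ccnd3, E2f4, Rb1, E2f8, E2f2 and E2f1. Ccnd1 (-0.44, adjusted p = 0.068) and Ccnd2 (-0.31, adjusted p = 0.144) were not called. Without gluten-free S6 Ccnd1 was called lower, at -0.56 (adjusted p = 0.0153), in a fit that called 42.6% of all tested genes.

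Among control libraries 0 of the 10 genes were called between the ID forms, beside 2.35% of all tested genes. One, Ccne1, had an unadjusted p under 0.05 in edgeR, as did 2846 of 17600 tested genes. Its log2 difference was -0.53 ± 0.16 (SE, S minus plain, adjusted p = 0.105). DESeq2 called Ccne1 alone of the 10 (adjusted p = 0.0441) and limma-voom none. Those fits called 5.18% and 1.44% of all tested genes. Without control 8 edgeR called Ccne1 too, at -0.60 (adjusted p = 0.0185), beside 3.14% of all tested genes. The within-diet and within-form comparisons share libraries, so their values are not independent of each other. The ID form and any difference in batch, litter or date that it may stand for cannot be told apart.

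Over all 20 libraries, with the ID form as a term, none of the 10 genes was called by diet, and 0% of all tested genes was. At an unadjusted p under 0.05 edgeR gave 4485 genes, 9 of the 10 among them. At an adjusted p under 0.05, where edgeR called 0 genes, DESeq2 called 1596 and limma-voom 1. The 7 of the 10 that DESeq2 called were both E cyclins, the 4 E2F genes and Rb1, and limma-voom called none of the 10. Ccne2 had a log2 fold change of -0.87 (interval -1.43 to -0.31) and Ccne1 of -0.79 (interval -1.32 to -0.26), both at an adjusted p of 0.102 in edgeR. E2f8 (-0.62), E2f2 (-0.58), E2f1 (-0.57), E2f4 (-0.56) and Rb1 (-0.49) followed, with Ccnd3 at -0.33. Ccnd2 had 0.32 and Ccnd1 0.28. Single libraries decided these calls: leaving out control S6 gave a call for each of the 10, and leaving out gluten-free S8 for all but Ccnd1. The same fits called 21.6% and 16.7% of all tested genes, and the DESeq2 fit over all libraries called 9.07%.

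The wider pathway was described by 24 further genes: kinases, their inhibitors, other E2F and partner genes, pocket proteins and the MuvB complex, which represses cell cycle genes together with E2f4. Of the 23 tested, 17 were called lower and 2 higher with the gluten-free diet in the plain-ID libraries. Over all tested genes 22% were called lower and 19.7% higher. The median log2 fold change of the 23 was -0.64, against 0.05 over all tested genes. Cdk2, the partner of the E cyclins, averaged 135 ± 13.4 CPM (SD, n = 8) in controls and 83.8 ± 4.58 (n = 4) with the gluten-free diet, a log2 fold change of -0.68. The D cyclin partner Cdk4 had -0.52, and Cdk6, at -0.22 (adjusted p = 0.0602), was not called. Cdc25a, the phosphatase that activates Cdk2, had -0.64.

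The inhibitors of these kinases went both ways. Cdkn2c, which blocks Cdk4 and Cdk6, fell from 122 ± 23.0 CPM (SD, n = 8) to 55.6 ± 7.23 (n = 4), a log2 fold change of -1.13. Cdkn1a had -0.71, Cdkn2d -0.67 and Cdkn1b -0.48, all called. The 2 genes called higher were inhibitors of low abundance: Cdkn1c rose from 2.24 ± 0.557 CPM (n = 8) to 3.57 ± 1.12 (n = 4), with a log2 fold change of 0.68 (adjusted p = 0.0252), and Cdkn2b from 0.614 ± 0.359 to 1.40 ± 0.513, with 1.15 (adjusted p = 0.0324). Cdkn2a did not pass the filter on low counts.

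Partners and relatives of the E2F and Rb1 genes were mostly lower. The dimer partner Tfdp2 had the highest level in the list and fell from 486 ± 78.4 CPM (SD, n = 8) to 228 ± 58.7 (n = 4), a log2 fold change of -1.09. Tfdp1 had -0.70. E2f7, the other atypical E2F, had -1.11, E2f6 -0.52 and E2f3, the third activator, -0.43, all called. E2f5 had 0.37 (adjusted p = 0.0637) and was not called. Of the pocket proteins related to Rb1, Rbl1 had -0.75 and was called, and Rbl2 had 0.27 and was not (adjusted p = 0.118). The MuvB genes Lin54 (-0.74), Rbbp4 (-0.71), Lin9 (-0.69) and Lin52 (-0.63) were called lower and Lin37 (-0.13) was not called. In the S-ID libraries 0 of the 23 genes were called, with values between -0.15 (Tfdp2) and 0.43 (Cdkn2b). The interaction was called for 15, all higher in the S-ID libraries, beside 15.3% of all tested genes called in that direction.

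**Figure D4:**
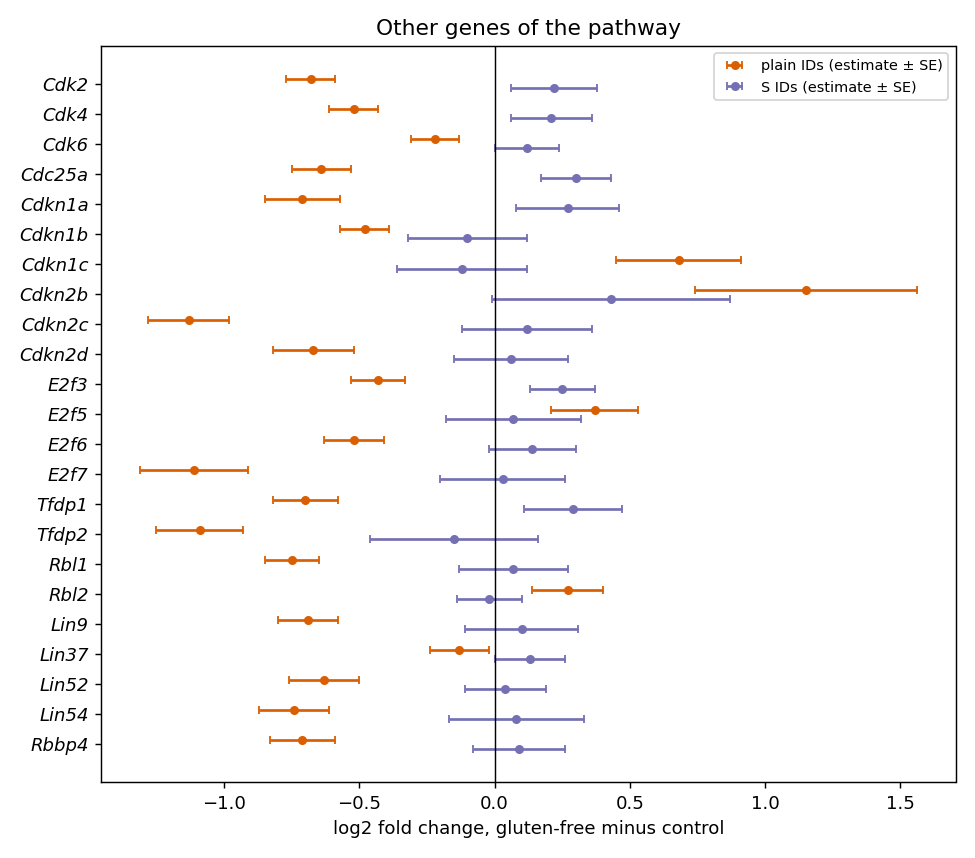
Log2 fold change (gluten-free minus control) of the 23 tested pathway genes with its SE, within the plain-ID libraries (orange) and the S-ID libraries (purple). In the plain-ID fit Cdkn1c (0.68) and Cdkn2b (1.15) lie highest, and 17 genes were called lower, beside 22% of all tested genes. The S-ID estimates lie between -0.15 and 0.43.

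A list of 20 genes that E2F factors are known to activate for DNA synthesis moved in 1 direction. All 20 were called lower with the gluten-free diet in the plain-ID libraries, between -1.56 and -0.96 with a median of -1.14, beside 22% of all tested genes and their median of 0.05. In the S-ID libraries 0 were called, with values between 0.04 and 0.27. The interaction was called higher for all 20, beside 15.3% of all tested genes. Pcna, the sliding clamp of DNA polymerases, averaged 566 ± 90.6 CPM (SD, n = 8) in plain-ID controls and 236 ± 19.1 (n = 4) with the gluten-free diet, a log2 fold change of -1.26. Mcm7, a subunit of the replicative helicase, had -1.07, and Rrm1, a subunit of ribonucleotide reductase, had -1.20.

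Markers of the cells in the spleen moved in the same libraries. All 15 erythroid markers, also chosen with earlier results known, were called lower with the gluten-free diet in the plain-ID libraries. Over all tested genes 22% were called lower. The median log2 fold change of the 15 was -1.35, against 0.05 over all tested genes. Their summed level ran from 9850 to 18300 CPM in plain-ID controls and from 4450 to 7960 CPM in plain-ID gluten-free libraries, without overlap. In the S-ID libraries it ran from 10600 to 22000 and from 9690 to 24600 CPM, and 0 of the 15 were called. The library lowest in erythroid markers among plain-ID controls, control 8, was also the lowest in Ccnd3, Ccne1, Ccne2, E2f1, E2f2, E2f4, E2f8 and Rb1 and the highest in Ccnd1 and Ccnd2. Gluten-free 7 had the lowest erythroid level of all 20 libraries and the lowest level of these 8 genes, and gluten-free S8 had the highest erythroid level and the highest level of Ccnd3, Ccne2, E2f2, E2f8 and Rb1. No list held a marker with 0 counts throughout a group, and Slc4a1, the anion exchanger of red cells, averaged 5140 ± 805 CPM (SD, n = 8) and 2110 ± 559 (n = 4) in the plain-ID groups.

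**Figure D5:**
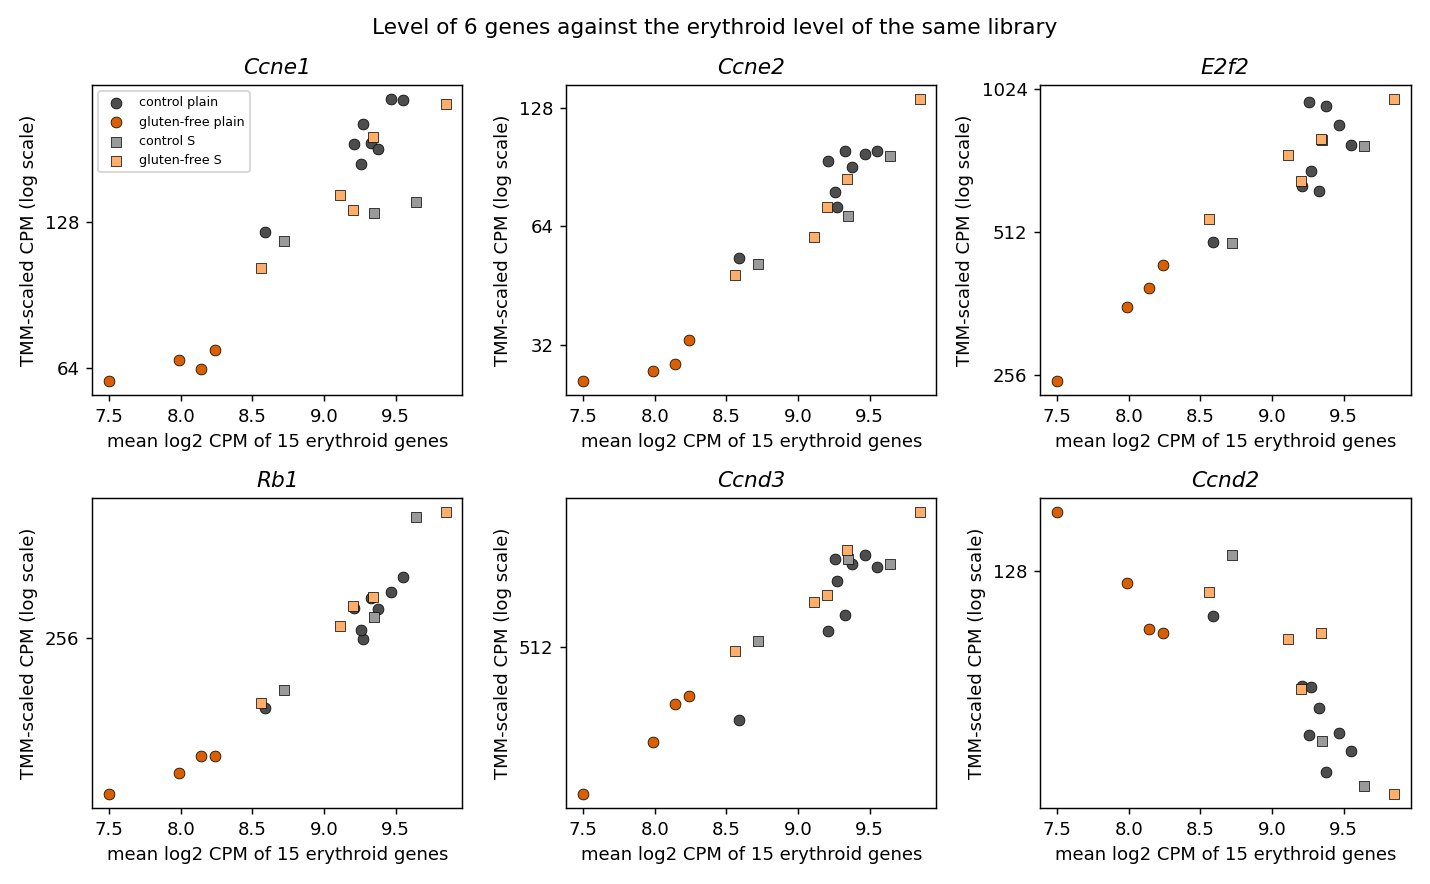
TMM-scaled CPM of 6 genes (vertical axis, log scale) against the mean log2 CPM of 15 erythroid markers in the same library (horizontal axis), with 1 point per library, circles for plain IDs and squares for S IDs. Libraries low in erythroid markers are low in Ccne1, Ccne2, E2f2, Rb1 and Ccnd3 and high in Ccnd2, and the 4 plain-ID gluten-free libraries lie at the low end.

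With the erythroid level of each library as a covariate, 0 of the 10 genes were called by diet in the plain-ID libraries, beside 2.68% of all tested genes. At an unadjusted p under 0.05 edgeR gave 3242 of 17600 genes, 3 of the 10 among them. Ccne1 (-0.63 ± 0.20, SE, adjusted p = 0.102) and Ccne2 (-0.58 ± 0.22, adjusted p = 0.163) kept their sign, while the E2F genes and Rb1 lay between -0.08 and 0.20. Ccnd1 changed sign to -0.92 ± 0.29 (adjusted p = 0.0935), Ccnd2 to -0.31 and Ccnd3 to 0.30. In the interaction Ccne1 alone of the 10 was called with the covariate, at 0.88 ± 0.20 (SE, adjusted p = 0.0115), beside 8.34% of all tested genes. The plain-ID diet groups did not overlap in erythroid level, so diet and that level cannot be told apart within the plain IDs.

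Of the markers of other cells, 12 of 12 T cell, 10 of 10 neutrophil, 5 of 5 tested megakaryocyte, 5 of 7 fibroblast, 4 of 10 B cell and 2 of 6 endothelium genes were called higher with the gluten-free diet in the plain-ID libraries, beside 19.7% of all tested genes. None of the 8 macrophage genes was called. Summed levels of the T cell list were 387 to 702 CPM in controls and 753 to 899 CPM with the gluten-free diet, those of the neutrophil list 710 to 2220 and 2900 to 7670 CPM, and those of the B cell list 1590 to 3400 and 2470 to 3650 CPM. Megakaryocyte sums were 492 to 1320 and 1460 to 2060 CPM. Of the most abundant genes, S100a9 of neutrophils had a log2 fold change of 1.53 and Lck of T cells 0.57, both called. In the S-ID libraries 0 genes of these lists were called by diet. Median log2 fold changes there were 0.29 (T cell), 0.17 (B cell), -0.26 (neutrophil), -0.48 (megakaryocyte), -0.61 (fibroblast), -0.45 (endothelium) and -0.37 (macrophage). Among controls, 5 of 5 tested megakaryocyte genes were called higher with S IDs than with plain IDs, beside 2.35% of all tested genes called either way. The part of these cells in the levels of the 10 genes was not tested beyond the erythroid covariate.

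One library stood apart from its label: control 5 lay with the S-ID libraries on the second principal component of all tested genes (-19.8, other plain-ID libraries -1.0 to 35.8). Without it Ccne1 (-1.56) and Ccne2 (-1.59) were as low in the plain-ID comparison, 9 of the 10 genes were called there, and 8 in the interaction. Those fits called 42.3% and 25.3% of all tested genes.

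Genes whose profile over the 20 libraries came nearest to each of the 10 were found as the smallest root mean square difference of centred log2 CPM among 13072 genes. Rb1 had the closest neighbour, Smc4, a condensin subunit, at 0.0489, followed by Usp15 at 0.0712. Ccnd3 was nearest to Cd47 (0.0701) and Tceal9, and E2f4 to Espl1, which encodes separase, and Slc7a5. E2f1 was nearest to Kcnn4 and Chtf18, E2f2 to Ctsf and Agpat4, and E2f8 to Dck, a deoxynucleoside kinase, and Sept8. The E cyclins had different neighbours: Ccne1 had Sec14l2 (0.107) and Klf1 (0.129), an erythroid transcription factor of the marker list, and Ccne2 had Cdc6 (0.109), a replication licensing gene of the target list, and Cep76. Ccnd2 was nearest to Chka and Tgfbr2, and Ccnd1 to Ptpn6 (0.169) and Icam1, the least close pair. All points share these 20 libraries and their composition.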

How the data were processed

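The authors deposited 1 table of raw counts, whole numbers for each gene and library. It was made with CASAVA, HISAT2 2.0.5 and featureCounts 1.5.0 on GRCm38 (mm10), per the submitters' processing notes. Strand setting, annotation release and the counting of reads with several matches are not given in the sources used here. Positions of the 10 genes in the file equal those of GENCODE M21.

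The members and gene lists were chosen with earlier results of these data known. Counts were tested with edgeR 4.0.16 in R 4.3.3 (limma 3.58.1, two-sided quasi-likelihood test, TMM scaling, default expression filter, 17600 of 54532 genes) and Benjamini-Hochberg adjustment over all tested genes. Calls were made at 0.05. The standard error is the size of the log2 fold change divided by the root of its F statistic, and log2 CPM used a prior count of 2. Each comparison within an ID form or a diet was fitted on its own libraries. In 47 same-group pairs, chi-square per degree of freedom was 5.72 to 95.6, so no library was a copy of another of its group. Pairs across groups were not compared in this way. The fit was tested on simulated data. Named genes were all 10 members, any tested pathway gene, the most abundant genes of each list and the 2 nearest profiles of each member. Profiles were compared among genes with a mean CPM of at least 1. The file writes Sept8 as a date, and its gene ID gave the symbol. Alternatives were other scalings, no filter, DESeq2 1.42.0, limma-voom, an erythroid covariate, a replicate block, other sets of libraries in the fit, and each library left out. Figures were drawn with matplotlib 3.10.9.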

Additional observations from a re-analysis of the deposited data

Results flagged for a closer look

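In 2 of 30 sets of a gene and a group of 4 to 10 libraries, 1 library lay far from the others by Dixon's criterion at 95%, which chance gives in about 1 in 20 sets. These were Ccnd1 in gluten-free S6, at 20.6 CPM, where the other 4 S-ID gluten-free libraries had 13.9 to 15.5, and E2f8 in control 8, at 79.6 CPM, where the other 7 plain-ID controls had 133 to 170. Both libraries were the lowest of their group in erythroid markers (mean log2 CPM 8.56 and 8.59).

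The diet effect differed between the ID forms in the interaction test of edgeR for 8 of the 10 genes. On the log2 scale the effect in the S-ID libraries was above that in the plain-ID libraries by 1.83 for Ccne1, 1.73 for Ccne2, 1.33 for E2f1, 1.18 for E2f2, 1.17 for E2f8, 1.03 for E2f4, 0.80 for Rb1 and 0.61 for Ccnd3. The plain-ID gluten-free libraries were the group that lay lowest for these 8 genes.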

How the results depend on the processing

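Under other scalings, no filter, DESeq2 and limma-voom, none of the 10 genes changed sign in the plain-ID, interaction or all-library comparison, nor in the plain IDs under 1 fit of 4 groups. Library totals, an alternative chosen after seeing the data, moved the median of all genes to 0.30 in the plain IDs, -0.30 in the interaction, -0.36 between ID forms in gluten-free libraries and 0.16 over all libraries. Ccnd1 was then called in the plain IDs (0.61, adjusted p = 0.0401), with Ccnd2 at 0.74, Ccnd3 at -0.31 and the other 7 between -1.31 and -0.55. That plain-ID fit called 48.7% of all genes. The interaction then called 6 genes, without Ccnd3 (0.33) and Rb1 (0.53), and the ID form in gluten-free libraries 10. Those fits called 22.5% and 41.6% of all genes.

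The number of the 10 genes called over all libraries was 0 and became 7 in DESeq2, which called 9.07% of all genes. With 1 library left out it ran from 0 to 10, the latter without control S6 (21.6% of all genes called), with 9 without gluten-free S8 (16.7%). Between ID forms in controls it was 0 and became 1 (Ccne1) with library totals, DESeq2 and the erythroid covariate, and ran from 0 to 1 with 1 library left out. The fits with library totals, DESeq2 and the erythroid covariate called 1.98%, 5.18% and 6% of all genes.

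The erythroid covariate moved most values. Members called became 0 in the plain IDs, 1 in the interaction and 0 between ID forms in gluten-free libraries. The same fits called 2.68%, 8.34% and 0% of all genes. Pathway genes called became 0 and 0 in the plain IDs and the interaction, and E2F targets 0 and 3. Signs changed in the plain IDs for Ccnd1 (-0.92), Ccnd2 (-0.31), Ccnd3 (0.30), E2f1 (0.18), E2f2 (0.12), E2f4 (0.01) and E2f8 (0.20). Over all libraries they changed for Ccnd1 (-0.11), Ccnd2 (-0.08), Ccnd3 (0.06), E2f1 (0.09), E2f2 (0.08), E2f4 (0.00), E2f8 (0.07) and Rb1 (0.05). In the interaction they changed for Ccnd1 (0.88), Ccnd2 (0.48), Ccnd3 (-0.08) and Rb1 (-0.13), and between ID forms in gluten-free libraries for Ccnd1 (0.30), Ccnd2 (0.44) and E2f4 (-0.04). Why these values moved was not tested.

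Both diets share the IDs 7, 8, S1 and S6. Deviations of same-numbered libraries correlated at -0.19, -0.22, 0.14 and 0.41, so the numbers were not taken to pair the libraries, and the S1 and S6 libraries, unlike 7 and 8, correlated best with their own number. With a replicate block 0 members, 0 pathway genes and 0 E2F targets were called in the plain IDs, where 4 libraries remain, and 0 members in the S IDs and over all libraries. The blocked fits called 0.239%, 0.25% and 0% of all genes. The blocked plain-ID values kept their sign for the 10 genes, among them -1.37 for Ccne1 (-1.53 without the block), -1.31 for Ccne2 (-1.58), -0.98 for E2f2 (-1.07) and -0.87 for E2f4 (-0.99). With the block the S-ID values were -0.10 for Ccnd3, -0.08 for Ccne1, -0.01 for Ccne2, -0.07 for E2f1, -0.06 for E2f2, -0.09 for E2f4 and 0.00 for E2f8, of the other sign or 0.

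In the S IDs, where no value was called, signs also changed when 1 library was left out. Ranges were -0.04 to 0.56 for Ccnd1, -0.11 to 0.40 for Ccnd2, -0.07 to 0.10 for Ccnd3, -0.12 to 0.42 for Ccne2, -0.08 to 0.24 for E2f2, -0.09 to 0.15 for E2f4, -0.11 to 0.28 for E2f8 and -0.21 to 0.27 for Rb1. Rb1 was 0.00 in limma-voom and 0.01 with the erythroid covariate. The interaction of Ccnd1 ran from -0.40 to 0.19. Between ID forms in controls the ranges were -0.22 to 0.29 for Ccnd2, -0.02 to 0.14 for Ccnd3, -0.24 to 0.08 for E2f2, -0.36 to 0.04 for E2f8 and -0.18 to 0.30 for Rb1. In simulated data of the S-ID diet comparison, 3% of genes changed 1.5-fold were recovered. Each gene was drawn on its own there, so differences in composition shared by many genes were not simulated. That rate may not carry over to the real S-ID libraries.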
